A study of Mus musculus with 12 samples.

Results

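The 10 genes described here are nuclear genes whose products work in mitochondria, namely Ndufb4, Ndufs8, Ndufv1, Atp5j, Cox17, Opa1, Parl, Timm44, Mrpl39 and Mrpl11. They were chosen by name from a table of 35129 gene entries, of which 16468 held a count in at least 1 library, and all 10 were found in the table. RNA was sequenced from cortical neurons of male mice (20 g, 5 to 7 weeks old) that carried a subcutaneous mini pump for 14 days. The pump gave saline (Sst and Thy1 groups) or nicotine hydrogen tartrate at 48 mg/kg/d (Sst+Nic and Thy1+Nic groups). Sst-neurons came from GIN mice (FVB background), in which a GadGFP transgene labels only some of the somatostatin interneurons, and Thy1-neurons came from YFPH mice (B6 background), in which a Thy1-YFP transgene labels layer V pyramidal neurons. Cell type and mouse strain therefore cannot be told apart. Fluorescent cells were drawn by micropipette in batches of 10, and 30 were taken from each mouse. Of 12 libraries, 10 were analysed here: 3 of Sst, 2 of Sst+Nic (replicates 2 and 3), 2 of Thy1 (replicates 2 and 3) and 3 of Thy1+Nic. The libraries numbered 1 of the Sst+Nic and Thy1 groups were not analysed here.

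Mitochondria make ATP by passing electrons from NADH along the complexes of the respiratory chain and using the proton gradient this builds to drive ATP synthase. Most of the subunits are encoded in the nucleus and imported, whereas a small core is encoded by mitochondrial DNA and made on mitochondrial ribosomes, so that the products of both genomes meet in the inner membrane. Neurons rely heavily on this pathway to restore ion gradients after firing. Ndufs8 and Ndufv1 are core subunits of complex I, which carry iron-sulfur clusters and bind NADH, respectively, and Ndufb4 is an accessory subunit of its membrane arm. Cox17 is the copper chaperone for cytochrome c oxidase, and Atp5j encodes coupling factor 6 of ATP synthase. Mrpl11 and Mrpl39 are proteins of the large mitochondrial ribosome subunit. Timm44 holds the import motor at the inner membrane channel, Opa1 is the GTPase that fuses inner membranes, and Parl is a protease of the inner membrane.

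On the GRCm38 genome (RefSeq annotation), 6 of the genes lie on chromosome 16: Parl (chr16:20279820-20302395), Opa1 (chr16:29579281-29663127), Ndufb4 (chr16:37647602-37654368), Cox17 (chr16:38346983-38352763), Mrpl39 (chr16:84718281-84735244) and Atp5j (chr16:84827871-84835857). Ndufs8 (chr19:3908863-3912774), Ndufv1 (chr19:4007499-4012755) and Mrpl11 (chr19:4962152-4966995) lie close together on chromosome 19, and Timm44 (chr8:4259731-4275905) lies on chromosome 8. RefSeq promoter windows were at hand for 9 of the 10 genes, all but Cox17. The 250 bases before each start were searched on both strands for the core of the NRF1 motif (GCGCA, any base, then GCGC), the factor best known for binding promoters of nuclear respiratory genes. Of 32851 promoter windows in the reference, 3.74% held a match. Among the genes described here, Ndufb4, Opa1 and Mrpl39 held a match. The ETS core CCGGAAG, present in 6.91% of all windows, was found in the windows of Parl and Atp5j. No window of these genes held both motifs, and a match of letters is not a measured binding site. In Opa1 and in Mrpl39 the NRF1 core match reads the same on both strands. The 200 bases just before the start of 3 of the genes are given below, 5′ to 3′ on the strand of the gene, with NRF1 core matches in capitals. Ndufb4 and Ndufs8 are shown because their levels had the lowest log2 fold changes of the 3 complex I genes between the nicotine groups, and they differ in these letters: Ndufb4 had 3 matches and Ndufs8 had none. Mrpl39 is shown because it also held a match to the core and was close to 0 in every library. All 3 lie on the minus strand.
Ndufb4, chr16:37654369-37654568: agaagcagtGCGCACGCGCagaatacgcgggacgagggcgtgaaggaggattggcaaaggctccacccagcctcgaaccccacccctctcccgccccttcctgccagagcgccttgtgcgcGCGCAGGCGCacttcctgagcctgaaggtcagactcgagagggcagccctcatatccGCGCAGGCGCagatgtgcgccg
Ndufs8, chr19:3912775-3912974: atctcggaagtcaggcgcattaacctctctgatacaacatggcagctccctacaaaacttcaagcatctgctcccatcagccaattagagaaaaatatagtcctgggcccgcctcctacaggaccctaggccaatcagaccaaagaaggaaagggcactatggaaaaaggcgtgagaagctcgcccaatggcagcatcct
Mrpl39, chr16:84735245-84735444: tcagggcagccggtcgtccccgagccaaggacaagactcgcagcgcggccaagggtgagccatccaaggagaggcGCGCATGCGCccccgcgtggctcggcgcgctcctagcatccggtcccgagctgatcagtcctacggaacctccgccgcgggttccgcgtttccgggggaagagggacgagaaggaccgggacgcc

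The deposited values were fragments counted per gene entry, and levels are given as CPM, the count scaled to the same total in each library. The libraries held between 2915738 and 4878326 fragments. A gene with no count could therefore have had up to 0.615 to 1.03 CPM, taking 3 counts as the limit. These limits and the 95% Wilson intervals cover counting error only, since amplified fragments without molecular identifiers are not independent molecules. Sst, the peptide that names the interneurons, was at 53779 to 126088 CPM in the libraries of Sst-neurons and at 1.15 to 49.2 CPM in the libraries of Thy1-neurons other than Thy1 replicate 3, which had 3795 CPM. Sox1, another interneuron gene on the marker list, was above 0 in all 5 libraries of Sst-neurons. Chodl was at 0 in all 5 and at 0.288 CPM in Thy1+Nic replicate 1, under the limit above, so 2 of the 3 interneuron markers that could be read had counts in Sst-neurons. No pyramidal marker could be read (0 of 7), because most entry names of the table did not match their counts. Of 1286 nuclear genes whose entries were compared with group values listed for the gene, 1141 lay outside 0.3 to 3 times that value. Names are used here only for 904 position-checked entries, which are the mitochondrially encoded genes and 4 chromosome stretches that hold all 10 genes and 56 of the genes compared. On chromosomes 8 and 19 the values compared were between 97.6% and 100.2% of those listed, whereas on chromosome 16 they ranged from 30.8% to 104.6%, with Zbtb20, the next gene compared after Ndufb4 and Cox17, at 45.3%. Of the other cell types only the endothelial gene Cldn5 could be read, and it was at 0 to 35.7 CPM in Sst-neurons and at 0 to 12.1 CPM in Thy1-neurons. The 13 mitochondrially encoded protein genes took 16.3% to 22.1% of the fragments of Sst-neurons and 31.4% to 38.5% of those of Thy1-neurons. In such pools of cells, fewer cells of a type and less RNA per cell cannot be told apart.

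All 3 complex I genes were counted in every library. Ndufb4 was at 1154, 1328 and 1511 CPM in Sst, 1081 and 1148 CPM in Sst+Nic, 1631 and 1803 CPM in Thy1, and 2165, 1855 and 1263 CPM in Thy1+Nic. The Sst+Nic libraries were the lowest of all, both Thy1 libraries were above every Sst library, and Thy1+Nic replicate 3 fell among the Sst-neurons. A gene named as its copy, Ndufb4c, lies on chromosome 15, so reads of the pair could have been split. Ndufs8 was at 1120, 756 and 1130 CPM in Sst, 918 and 833 CPM in Sst+Nic, 1135 and 1310 CPM in Thy1, and 1886, 1034 and 1799 CPM in Thy1+Nic. Every library of Sst-neurons was below both Thy1 libraries, although Sst replicate 3 was close to Thy1 replicate 2. The Wilson intervals of those 2 libraries, 1097 to 1165 CPM and 1101 to 1171 CPM, overlapped almost wholly, so that this gap was within counting error. Ndufv1 was at 1694, 1209 and 1022 CPM in Sst, 1463 and 1094 CPM in Sst+Nic, 1103 and 968 CPM in Thy1, and 915, 1023 and 1705 CPM in Thy1+Nic. Its ranges overlapped in all comparisons, and its highest value was in a Thy1+Nic library.

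Cox17 was at 540, 707 and 660 CPM in Sst, 452 and 546 CPM in Sst+Nic, 590 and 567 CPM in Thy1, and 790, 728 and 581 CPM in Thy1+Nic. The groups differed little at baseline, and after nicotine the Sst-neurons were below all Thy1-neurons. Its gene shares its strand and position with Gm21987, so the 2 entries could have split reads. The entry of Atp5j was nearly empty: it held 17, 23 and 76 counts in Sst (4.23, 5.87 and 20.5 CPM), 0 and 1 in Sst+Nic, 13 and 1 in Thy1, and 0, 0 and 19 in Thy1+Nic. Atp5j overlaps Gabpa on the opposite strand, and reads of the pair cannot be told apart where strand was not counted. Mrpl39 held 7 counts at most and none in 6 of 10 libraries. For Atp5j and Mrpl39 the closest gene compared was 0.816 and 0.926 Mb away on one side. On the other side, Vgll3 was 19.0 and 18.9 Mb away, at 30.8% of its listed value. The names of these 2 entries are therefore less certain than those of the other genes, and their counts may belong to other genes. Of the 10 genes only Ndufs8 was itself compared, at 100% of its listed value, and the other names rest on neighbours. Opa1 lies between Sst, 5.69 Mb away, and Acap2, 1.51 Mb away and at 73.1% of its listed value.

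Mrpl11 varied least, with a coefficient of variation of 14.7% over the 10 libraries. It was at 453, 512 and 513 CPM in Sst, 496 and 404 CPM in Sst+Nic, 430 and 569 CPM in Thy1, and 667, 543 and 544 CPM in Thy1+Nic. All Thy1+Nic libraries were above both Sst+Nic libraries. Timm44 was at 78.8, 191 and 233 CPM in Sst, 224 and 70.3 CPM in Sst+Nic, 197 and 215 CPM in Thy1, and 146, 160 and 213 CPM in Thy1+Nic. Its lowest values were in 1 library of each group of Sst-neurons, and in CPM the groups overlapped in all comparisons. Timm44 overlaps the small RNA gene Gm26102 on the opposite strand.

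Opa1 varied most among the genes counted in every library. It was at 123, 34.2 and 148 CPM in Sst, 271 and 99.0 CPM in Sst+Nic, 203 and 18.1 CPM in Thy1, and 149, 57.2 and 104 CPM in Thy1+Nic. Replicates of a group spread as widely as the groups did. Parl was at 268, 222 and 247 CPM in Sst, 276 and 405 CPM in Sst+Nic, 180 and 143 CPM in Thy1, and 224, 138 and 256 CPM in Thy1+Nic. In CPM, all Sst-neurons treated with saline were above the Thy1-neurons treated with saline, and the same held between the nicotine groups.

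**Figure D1:**
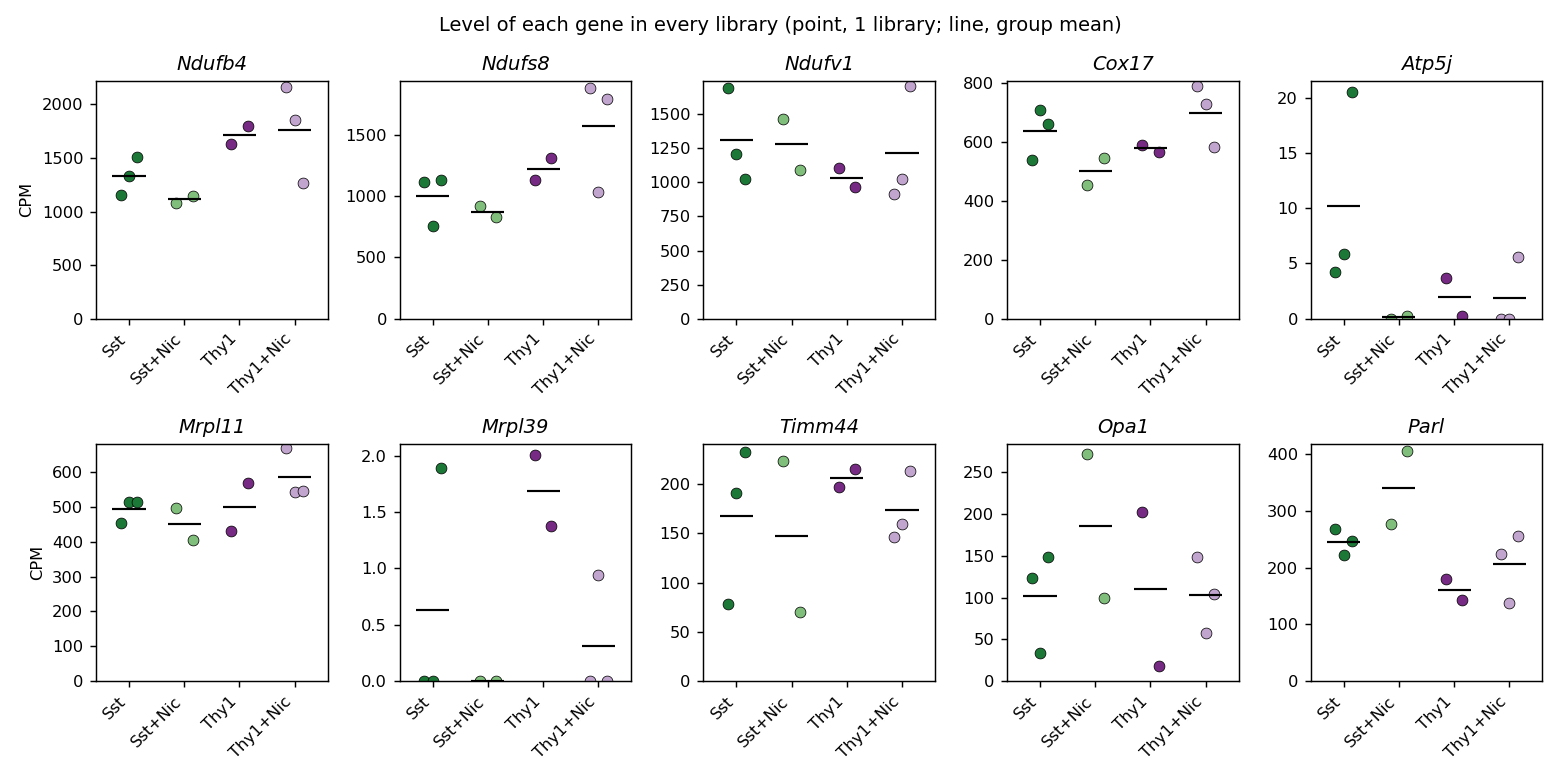
Level of each of the 10 genes in CPM (y axis, from 0, a scale of its own for each gene) in every library of the 4 groups (x axis); points are libraries and lines are group means. Ndufb4, Ndufs8, Cox17, Mrpl11 and Timm44 had their lowest group mean in Sst+Nic, and so did Atp5j and Mrpl39, which were close to 0. Opa1 and Parl had their highest group mean in Sst+Nic.

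Divided by transcript length (CPM per kilobase, with mean lengths of the RefSeq-matched transcripts), the genes spanned a wide range of levels. The median over libraries was 1462 for Ndufb4, 1319 for Cox17 and 1276 for Ndufs8, and these 3 overlapped. Ndufv1 was at 662, overlapping Ndufs8 and Cox17 only at its upper end. Parl (175) and Mrpl11 (168) overlapped each other and were below every library of Ndufv1. Timm44 followed at 108, below every library of Mrpl11 but overlapping Parl. Opa1 was at 24.0 and overlapped Timm44, and Atp5j was at 2.58 and overlapped Opa1.

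Nicotine was first compared with saline in Sst-neurons, to ask whether chronic exposure shifts these genes within interneurons. Ndufb4 was lower in both Sst+Nic libraries than in any Sst library, with means of 1114 ± 47.0 CPM (SD, n = 2) and 1331 ± 179 CPM (SD, n = 3) and a log2 fold change of -0.48 (SE 0.27, edgeR adjusted p = 1.00). The nearest libraries, at 1148 and 1154 CPM, had Wilson intervals that overlapped (1118 to 1178 and 1121 to 1188 CPM), and the groups overlapped after TMM scaling. Parl was higher in CPM in both Sst+Nic libraries (log2 fold change 0.28, SE 0.30, edgeR adjusted p = 1.00), but these groups too overlapped after TMM scaling, and the sign turned to -0.20 without Sst+Nic replicate 3. Atp5j was lower, at 1 count over both Sst+Nic libraries against 116 over the Sst libraries, a ratio of 77.6 in depth-corrected counts (exact 95% interval 13.7 to 3092). Its fitted log2 fold change, which depends on the prior count, was -6.27 (SE 2.08, edgeR adjusted p = 1.00). The interval of the ratio covers counting error only, not the spread between mice. Sst replicate 3 held 76 of the 116 counts, and the ratio was 39.3 without it (exact 95% interval 6.65 to 1589). Of 9 genes tested, 7 were lower and 2 higher, with a median log2 fold change of -0.40 against 0.05 for all entries. The position-checked entries had a median of -0.09. edgeR called 0 of the 9 genes at an adjusted p under 0.05 and a log2 change beyond 1, and only Atp5j had an unadjusted p under 0.05, as did 4.19% of entries. Without Sst replicate 1 it was 3 of the 9 genes and 7.999% of entries, and without Sst replicate 3 or without Sst+Nic replicate 2 it was none of the genes. Across the table, 0 of 6689 entries were called (0%), and DESeq2 called 0.239% of entries but none of these genes. Groups that did not overlap in CPM were seen for 4.69% of entries in the lower direction and 15.6% in the higher direction, and for 2 and 1 of the 10 genes. After TMM scaling these were 7.8% and 12.3% of entries, and 3 and 0 of the genes (Ndufs8, Atp5j and Mrpl11, all lower). Such shares, here and below, cover entries with a mean count of at least 10 in the libraries compared. That limit was not set for the 10 genes.

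The same comparison in Thy1-neurons gave mostly values of the other sign. Only Mrpl39 did not overlap in CPM, at 7 and 5 counts in Thy1 against 0, 4 and 0 in Thy1+Nic, and it was too low to be tested. Of 9 genes tested, 7 were higher and 2 lower after nicotine. Their log2 fold change lay between -0.16 and 0.45. The median was 0.31, against 0.00 for all entries and 0.10 for position-checked ones. edgeR called 0 of the 9, none had an unadjusted p under 0.05 (4.37% of entries did), and 0 of 6048 entries were called (0%). DESeq2 called 0.231% of entries and none of the genes. Without Thy1 replicate 3, the library with Sst counts, Opa1 moved from 0.06 to -0.77, and without Thy1 replicate 2 it was at 2.52. Atp5j moved from -0.08 to 2.49 without Thy1 replicate 2, to 0.49 without Thy1+Nic replicate 1 and to 0.52 without Thy1+Nic replicate 2, and without Thy1+Nic replicate 3 it was too low to be tested. Only 1 gene was lower without Thy1 replicate 2, without Thy1+Nic replicate 2 or without Thy1+Nic replicate 3. Groups did not overlap for 13.7% of entries in the lower and 7.13% in the higher direction. Mrpl39 was below the mean count that this background required.

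Sst-neurons and Thy1-neurons were then compared under saline. Ndufb4 (log2 fold change -0.53, SE 0.24, edgeR adjusted p = 0.330) and Ndufs8 (-0.48, SE 0.22, adjusted p = 0.342) were lower in all Sst libraries than in any Thy1 library. Parl was higher (0.44, SE 0.25, edgeR adjusted p = 0.458) and so was Atp5j (2.23, SE 1.66, edgeR adjusted p = 0.617), the latter on few counts and with groups that overlapped after TMM scaling. Without Thy1 replicate 3 the values were -0.37 for Ndufb4, -0.29 for Ndufs8, 0.35 for Parl and 1.37 for Atp5j. Atp5j was at 4.79 without Thy1 replicate 2 and at 1.26 without Sst replicate 3. Of 9 genes tested, 6 were lower and 3 higher, with a median of -0.19 against 0.05 for all entries and -0.08 for position-checked ones. Without Thy1 replicate 3 the count turned to 4 lower and 5 higher, with a median of 0.04 against 0.22 for all entries. None of the differences passed the test: edgeR called 0 of the 9, against 1.72% of all 6350 entries, and 0 had an unadjusted p under 0.05, against 16.3% of entries. The 109 entries called fell to between 33 and 55 with any 1 library left out. DESeq2 also called none, against 8.68% of entries. Ndufs8 and Ndufb4 had an unadjusted p under 0.05 with DESeq2, as did 20.3% of entries, and with limma voom, as did 18.4%. Groups did not overlap for 14.6% of entries in the lower and 19.9% in the higher direction, and 2 of the 10 genes did so in each.

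Between the nicotine groups, Ndufs8, Ndufb4, Cox17 and Mrpl11 had the lowest log2 fold changes of the 8 genes tested. Atp5j and Mrpl39 were too low to be tested there, with 1 count over the Sst+Nic libraries against 19 in a single Thy1+Nic library for Atp5j. Ndufs8 was lower in Sst+Nic than in Thy1+Nic by a log2 fold change of -1.33 (SE 0.32, edgeR adjusted p = 0.127), with means of 876 ± 59.6 CPM (SD, n = 2) and 1573 ± 469 CPM (SD, n = 3). Ndufb4 was lower by -1.18 (SE 0.36, edgeR adjusted p = 0.213), Cox17 by -0.99 (SE 0.34, adjusted p = 0.232) and Mrpl11 by -0.89 (SE 0.29, adjusted p = 0.228). These 4 genes did not overlap in CPM and had an unadjusted p under 0.05 in the edgeR test, as did 15.7% of all entries. Only 1 of the 8 genes tested had such a p with totals in place of TMM (16.5% of entries) or in the replicate block fit (8.53%), and 2 of 9 did without Sst+Nic replicate 2 (7.78%). Lower values without overlap were found for 4 of the 10 genes and 8.47% of entries, and after TMM scaling for 5 of the 10 genes and 14.5% of entries, the added gene being Timm44. Parl was higher without overlap in CPM, as were 30.2% of entries (19.5% after TMM scaling), at a log2 fold change of 0.27 (SE 0.37, edgeR adjusted p = 0.866). The groups overlapped for Parl after TMM scaling, and its value was -0.21 without Sst+Nic replicate 3. Ndufv1, Timm44 and Opa1 overlapped in CPM, with log2 fold changes of -0.41, -0.79 and 0.30. The sign of Opa1 turned to -0.43 without Sst+Nic replicate 2, and that of Ndufv1 turned to 0.07 with totals in place of TMM.

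edgeR called 0 of the 8 genes tested in this comparison, against 0.507% of 6509 entries. That background of 33 called entries rested on single libraries, with 0 called without Thy1+Nic replicate 3, 1 without Thy1+Nic replicate 1 or 2, 10 without Sst+Nic replicate 2 and 56 without Sst+Nic replicate 3. The count of genes depended on the tool and the filter. DESeq2 called 2 genes, Ndufs8 and Ndufb4, against 7.62% of entries. Without a filter on low counts edgeR also called these 2 (2.65% of entries), a filter of 10 counts in any library left Ndufs8 alone (2.91%), and so did a fit of all 10 libraries together (1.27%). limma voom called none of the genes in this or any other comparison, and called 0.999% of entries here, 1.72% between the saline groups and 0% in the others. The size depended on the scaling: with totals in place of TMM the median of all entries rose from 0.09 to 0.59, and Ndufs8, Ndufb4, Cox17 and Mrpl11 stood at -0.85, -0.66, -0.49 and -0.38. The mitochondrially encoded share of fragments differed between the same groups (16.3% and 19.8% in Sst+Nic, 31.4% to 38.5% in Thy1+Nic), and its part in the differences was not tested.

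**Figure D2:**
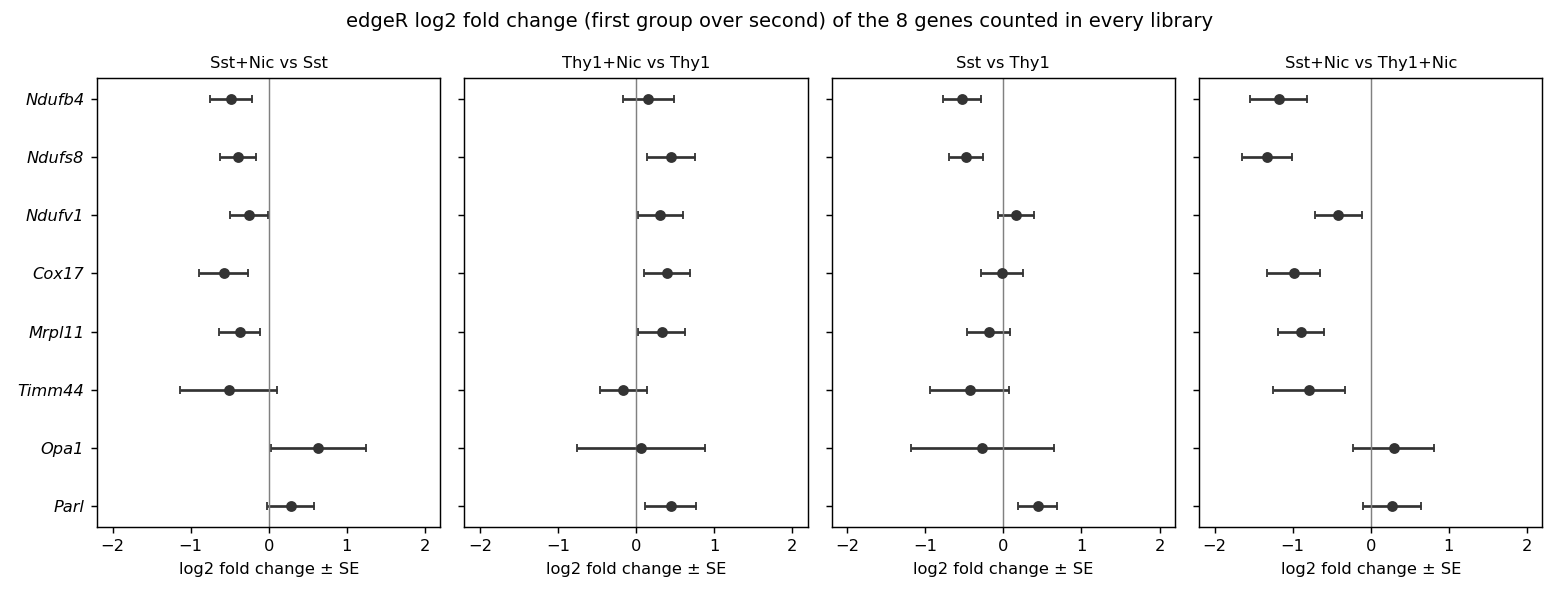
Log2 fold change with its standard error (x axis) for the 8 genes counted in every library (y axis) in the 4 comparisons of 2 groups, the first group over the second. Ndufs8 and Ndufb4 had the lowest values, -1.33 and -1.18, in the comparison of the nicotine groups, and no gene was called by edgeR in any comparison.

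Whether nicotine acted differently on the genes in the cell types was tested with the interaction term over all 10 libraries. Ndufs8 had an interaction of -0.87 (SE 0.38, unadjusted p = 0.043, edgeR adjusted p = 0.673) and Cox17 of -0.98 (SE 0.43, unadjusted p = 0.043, edgeR adjusted p = 0.673), with a negative sign meaning a lower nicotine effect in Sst-neurons. An unadjusted p under 0.05 was found for 7.33% of all entries. With RLE size factors or with totals in place of TMM, none of the 9 genes had such a p, and with single libraries left out between 0 and 2 did. Of 9 genes, 8 were below 0 and Opa1 was above, with a median of -0.66 against -0.03 for all entries and -0.22 for position-checked ones. With totals in place of TMM, 6 of 9 were below 0, and the median was -0.29 against 0.30. edgeR called 0 of the 9 and 0 of 8242 entries (0%), and DESeq2 called none of the 9 against 0.0849% of entries. None of the 9 genes passed the test of a difference in nicotine effect between the cell types.

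Because library scaling mattered, shares and ratios within a library were also read. The 10 genes together took 0.638% to 0.696% of the fragments outside the mitochondrially encoded genes in Sst, 0.574% and 0.619% in Sst+Nic, 0.801% and 0.869% in Thy1, and 0.901% to 1.01% in Thy1+Nic. No groups overlapped in this share, whose denominator itself differed between the cell types. As a share of all fragments, the genes took 0.497% to 0.549% in Sst, 0.460% and 0.518% in Sst+Nic, 0.547% and 0.559% in Thy1, and 0.554% to 0.694% in Thy1+Nic. On that scale Sst overlapped Sst+Nic and Thy1, and Thy1 overlapped Thy1+Nic, while the nicotine groups did not overlap. With Sst itself, which took up to 12.6% of a library, also left out of the denominator, the shares outside the mitochondrially encoded genes were 0.751% to 0.787%, 0.624% and 0.661%, 0.801% and 0.875%, and 0.901% to 1.01%. The ratio of Ndufs8 to Ndufv1 counts, both core subunits of complex I, was 0.626 to 1.11 in Sst and 0.627 and 0.762 in Sst+Nic. It was 1.03 and 1.35 in Thy1 and 1.01 to 2.06 in Thy1+Nic, so that after nicotine it was lower in both Sst-neuron libraries. The ratio of Cox17 to Parl was 1.35 and 1.64 in Sst+Nic and at least 2.01 in every other library. Other ratios overlapped between the nicotine groups: Ndufb4 to Ndufv1 was 0.739 and 1.05 in Sst+Nic and 0.740 to 2.36 in Thy1+Nic, and Ndufb4 to Ndufs8 was 1.18 and 1.38 in Sst+Nic and 0.702 to 1.79 in Thy1+Nic. Opa1 to Parl (0.245 and 0.981 against 0.406 to 0.663) and the share of Ndufs8 in the counts of the 3 complex I genes (26.5% and 27.1% against 26.4% to 38.0%) overlapped as well.

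**Figure D3:**
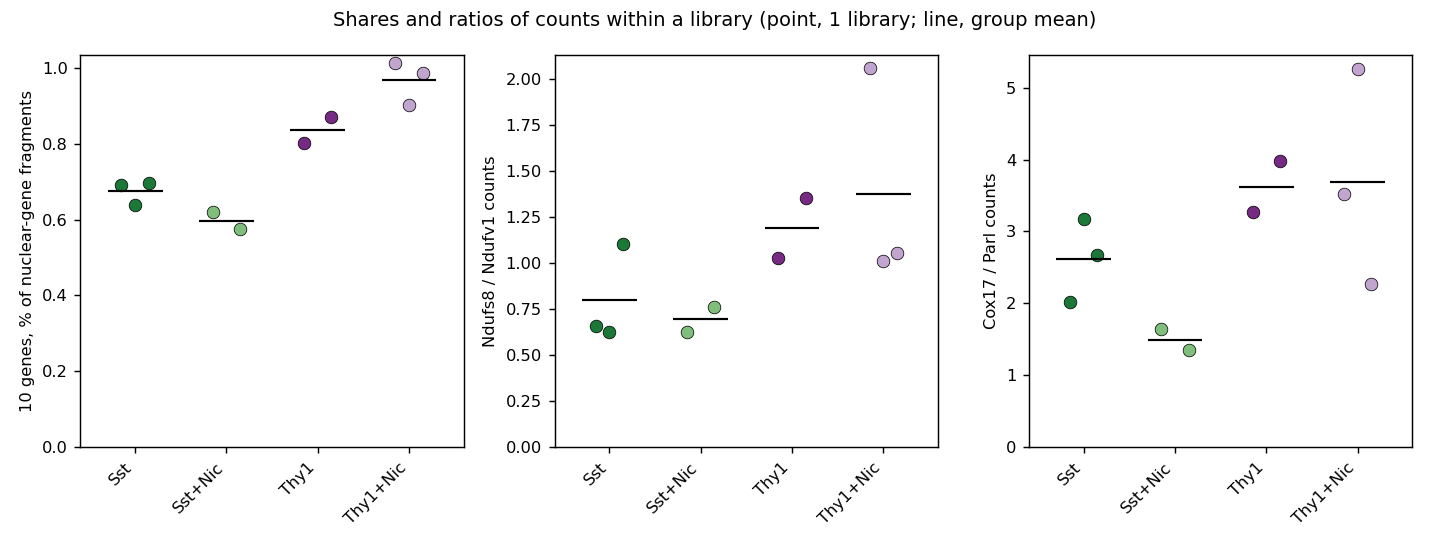
Summed counts of the 10 genes as a percentage of fragments outside the mitochondrially encoded genes (left), and ratios of Ndufs8 to Ndufv1 counts (middle) and of Cox17 to Parl counts (right), each on a y axis from 0, in every library of the 4 groups (x axis); lines are group means. The summed share was lowest in Sst+Nic (0.574% and 0.619%) and highest in Thy1+Nic (0.901% to 1.01%).

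The genes did not vary as 1 block. Over the 10 libraries, 14 of the 28 pairs among the 8 genes counted in every library had a Pearson r of log2 CPM above 0, with a median of 0.04. Ndufb4 followed Cox17 (r = 0.75) and Mrpl11 (r = 0.67) and ran opposite to Ndufv1 (r = -0.77) and Parl (r = -0.72). All pairs share libraries, depth and groups, so these are descriptions. Among 384 other position-checked entries, Gtpbp8 (r = 0.75), Pi4ka (r = 0.74) and Fstl1 (r = 0.73) had the profiles closest to the mean of these genes over the 10 libraries.

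Other mitochondrial genes could be read only where the entry names were checked. Of 14 nuclear ones tested between the nicotine groups, 8 were lower and 6 higher in Sst+Nic and 0 were called by edgeR, with a median of -0.19. The median of all 517 position-checked entries tested there was -0.18. All 3 mitochondrial ribosome genes were on the lower side, with Mrpl21 at -1.47 (edgeR adjusted p = 0.096), Mrpl40 at -0.76 and Mrpl49 at -0.58. Of 4 import and chaperone genes, 3 were lower, among them Pam16, a regulator of the import motor that Timm44 anchors, at -0.89, whereas Trap1, a mitochondrial chaperone, was at 0.69. Dnm1l, the GTPase of mitochondrial fission, was at -0.20, and 5 of 6 carrier and matrix enzyme genes were higher, with Abat, which breaks down GABA, at 1.59 (edgeR adjusted p = 0.111). All 13 mitochondrially encoded genes were lower, from -2.04 to -1.06 with a median of -1.41, and edgeR called 0 of them. In the saline comparison the same 13 were lower, with 3 called (ATP6, ND5 and ND6), whereas of the nuclear genes 4 of 14 were lower and 0 were called. In Sst-neurons, 11 of 14 nuclear and 12 of 13 mitochondrially encoded genes were lower after nicotine. In Thy1-neurons, 5 of 13 and 4 of 13 were lower, and edgeR called 0 in both.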

How the data were processed

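The authors aligned paired-end reads to GRCm38 with TopHat and deposited raw fragment counts per gene entry, without normalization. The submitters' processing notes also name HTSeq; versions and gene annotation were not given in the sources used here. Amplification used the SMARTer Ultra Low Input kit. The table held 10 of 12 libraries, with totals from 2915738 to 4878326 fragments. Entry names were checked against group values listed in the study's supplement for 1286 nuclear genes. A stretch was kept while its values stayed within 0.3 and 3 times those. The 904 entries kept lay in these stretches or were mitochondrially encoded, and most of them were not compared themselves.

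All entries were fitted with the quasi-likelihood test of edgeR 4.0.16 in R 4.3.3 (TMM, filterByExpr with a minimum count of 10), 2 groups at a time, with the interaction fitted over 4 groups. Benjamini-Hochberg adjustment covered all entries tested, and genes were called at adjusted p under 0.05 and a log2 fold change beyond 1 in either direction. Fits were also run on simulated data with less spread between libraries than these data had. Those runs do not show what could be detected here. CPM used library totals, and correlations used log2(CPM + 1). Alternatives included DESeq2 1.42.0 and voom of limma 3.58.1. All 10 genes were named, with statistics for those whose CPM values did not overlap between groups (for the interaction, unadjusted p under 0.05). The genes and lists were chosen with earlier results of these data known. Python 3.11.15 was used for levels and figures.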

Additional observations from a re-analysis of the deposited data

How the results depend on the processing

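No gene of the 10 was called by edgeR in any of the 5 tests, and 80 alternatives gave the same count. In each test, 1 alternative only dropped the fold-change limit from the main fit, so its values and signs could not differ. It is counted here and in the totals below. The 4 alternatives with another count were all between the nicotine groups. There, 2 genes were called by DESeq2 and 2 without a filter on low counts. With at least 10 counts required in a single library 1 was called, and 1 when every library entered the same fit. The cause was not tested, beyond the change in entries and libraries that these settings bring. For the 14 log2 fold changes printed with a standard error, 224 alternative values kept their sign and side of the threshold, 6 kept their sign and passed it, and 2 changed sign. Both were Parl with Sst+Nic replicate 3 left out: against Sst it ranged from -0.20 to 0.61 over the libraries left out, and between the nicotine groups from -0.21 to 0.61. Over all 44 pairs of a tested gene and a comparison, the sign turned in 33 of 739 alternative values, 13 of them of Opa1 and none of Ndufs8. The lower and higher genes between the saline groups turned from 6 and 3 to 4 and 5 without Thy1 replicate 3 and with the replicate block. With 1 library left in a group, that library is assumed to vary like the others. The replicate number as a block gave 0 called genes in all 5 tests and changed no call of these genes. With it, 4 of 9 genes had an unadjusted edgeR p under 0.05 for nicotine in Sst-neurons, as did 4.43% of entries. For the interaction none of the genes did, against 3.47% of entries. Deviations of same-numbered libraries correlated between -0.08 and 0.02 over 2 pairs a comparison, so the numbers do not pair the libraries. Among all entries, edgeR called 109 between the saline groups and 59 with the block, and 33 between the nicotine groups and 9 with it. Totals in place of TMM moved the median of all entries by over 0.1 in each comparison; with it, the medians of the genes and of all entries were -0.19 and 0.27 for nicotine in Sst-neurons, 0.23 and -0.11 for nicotine in Thy1-neurons, -0.02 and 0.22 between the saline groups, and -0.31 and 0.59 between the nicotine groups. Group levels moved by less than the replicate SD in 45 of the rescaled values and by more in 35. Groups of 2 and 3 libraries and 30 cells a mouse limit what could pass the test, and Atp5j and Mrpl39 were too low to compare firmly.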
